A study of Mus musculus with 14 samples.

Results

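Glycolysis and the response to low oxygen are described here in mouse macrophages through 36 genes, chosen by name: the enzymes of glycolysis, the transporters that feed and empty it, the switches at either end of it, the regulators of the hypoxia inducible factors, and well known targets of those factors. All 36 were found by their Ensembl identifiers among the 21444 genes of the mRNA tables. By role they comprised 2 transporters, 14 glycolytic enzymes, 2 flux switches, 12 hypoxia effector targets and 6 hypoxia regulators. The rule names no measured value, but the genes were chosen with earlier results of these data known.

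The cells were bone marrow derived macrophages of C57BL/6 mice, grown from marrow with 20% L929 conditioned medium, which supplies the growth factor CSF1. Culture lasted 6 days by the protocols and 7 by the design text. KO cells carried ELAVL1f/f together with LysM-Cre, a recombinase expressed from the Lyz2 gene of myeloid cells, and WT cells carried ELAVL1f/f without it, so that loss of Elavl1 and presence of Cre cannot be told apart. ELAVL1 is an RNA-binding protein, also called HuR, that binds U-rich and AU-rich stretches of mRNA. There were 4 KO and 4 WT mRNA libraries, each genotype numbered 1 to 4, and 1 AGO2 PAR-CLIP library per genotype. The small RNA libraries, KO 3 and 4 and WT 1 and 2, served only to choose miRNA families. The design text calls the mRNA samples biological repeats, but no label ties a number to a mouse, so a p-value here reflects how far these libraries vary, which may be technical.

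In glycolysis, glucose enters through transporters, is trapped by hexokinase and is split and oxidised to pyruvate, which lactate dehydrogenase turns into lactate for export. When oxygen is short, prolyl hydroxylases no longer mark the HIF alpha subunits for destruction by VHL, and HIF1A or EPAS1 pairs with ARNT to switch on glycolytic and hypoxia genes. Macrophages rely heavily on glycolysis when activated, and HIF1A is a known regulator of it in these cells.

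The mRNA libraries held 8160789 to 25030262 counts in KO and 11192104 to 24681273 in WT. Libraries numbered 3 and 4 stood apart from those numbered 1 and 2 in both genotypes, and had more counts (22920606 to 25030262 against 8160789 to 19547964). Elavl1 itself was not lower in KO, at 64.1 to 76.8 CPM (counts scaled by library size and TMM) against 61.3 to 65.9 in WT; which exons Cre removes is not stated, so this count checks no label. Lyz2, the gene that carries Cre, was below every WT library in every KO library, at 3723 to 6142 CPM in KO against 9949 to 15450 in WT. Macrophage markers were abundant, the summed CPM of 12 genes running from 10720 to 11920 in KO and from 11020 to 12170 in WT. In bulk RNA, fewer cells of a type and less RNA per cell cannot be told apart.

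Per length, a few glycolytic enzymes and a single stress gene stood highest. Pkm, the pyruvate kinase that makes pyruvate, had the highest deposited RPKM (reads per kilobase, scaled by library size), 915 ± 121 in KO and 1075 ± 121 in WT (SD, n = 4 each). The gene length behind each RPKM is not given here, and it affects the order between genes. In WT 1, for example, Pfkfb3 had 4448 counts at 10.5 RPKM and Pfkp 1570 counts at 35.3 RPKM. The order by RPKM is therefore uncertain. Ndrg1, a stress and hypoxia gene of unsettled molecular function, followed at 318 ± 188 RPKM in KO and 275 ± 160 in WT. Aldoa, the main aldolase, stood at 256 ± 34.7 RPKM in KO and 270 ± 44.3 in WT. In WT 99.9% of all genes in the tables lay below Pkm and 99.1% below Aldoa. Ndrg1 and Aldoa did not differ beyond the spread of Ndrg1.

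Gpi1, the glucose phosphate isomerase, and Tpi1, the triose phosphate isomerase, came next, at 183 ± 34.04 and 152 ± 21.9 RPKM in KO and 196 ± 40.05 and 158 ± 21.5 in WT. Ldha, a lactate dehydrogenase subunit, reached 60.3 ± 5.63 RPKM in KO and 67.5 ± 9.97 in WT. The glucose transporter Slc2a1 stood at 29.99 ± 3.51 RPKM in KO and 34.7 ± 7.58 in WT, above the lactate exporter Slc16a3 at 13.5 ± 1.29 in KO and 17.1 ± 8.34 in WT.

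Among the regulators Egln1, the main oxygen-sensing prolyl hydroxylase, was highest, at 21.2 ± 2.71 RPKM in KO and 21.2 ± 4.31 in WT. Hif1a, Vhl and Arnt lay between 5.30 and 7.54 RPKM on average in KO and between 4.996 and 8.60 in WT. Egln3, a hydroxylase that is itself a HIF target, averaged 1.67 RPKM in KO and 2.49 in WT. Epas1, the HIF2 alpha subunit, was the lowest of all 36 at 0.674 ± 0.433 RPKM in KO and 0.457 ± 0.228 in WT, near Adm, which encodes the vasodilator adrenomedullin (0.966 ± 0.542 in KO and 1.21 ± 1.33 in WT), and the MYC antagonist Mxi1 (1.08 ± 0.346 in KO and 1.26 ± 0.384 in WT). The order among these 3 is not resolved beyond their spread. The place of Mxi1 depends on the length used. By counts it averaged 21.75 CPM in WT, above Gapdh at 9.81 and Pgk1 at 15.0, although its RPKM was below theirs.

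Gapdh, an enzyme usually among the most abundant mRNAs, was listed at only 1.76 ± 0.775 RPKM in KO and 2.17 ± 1.51 in WT, and Pgk1, phosphoglycerate kinase, at 6.79 ± 1.87 in KO and 7.67 ± 1.41 in WT. Both genes have near-identical processed copies in the mouse genome, as do several other glycolytic genes. How reads that map to several copies were counted is not stated, so the levels of Gapdh, Pgk1 and Eno1 are uncertain. Eno1b, a copy of Eno1 listed as a gene of its own, held 51.6 ± 2.47 CPM in KO and 57.1 ± 10.1 in WT, beside 130 and 146 CPM for Eno1.

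**Figure D1:**
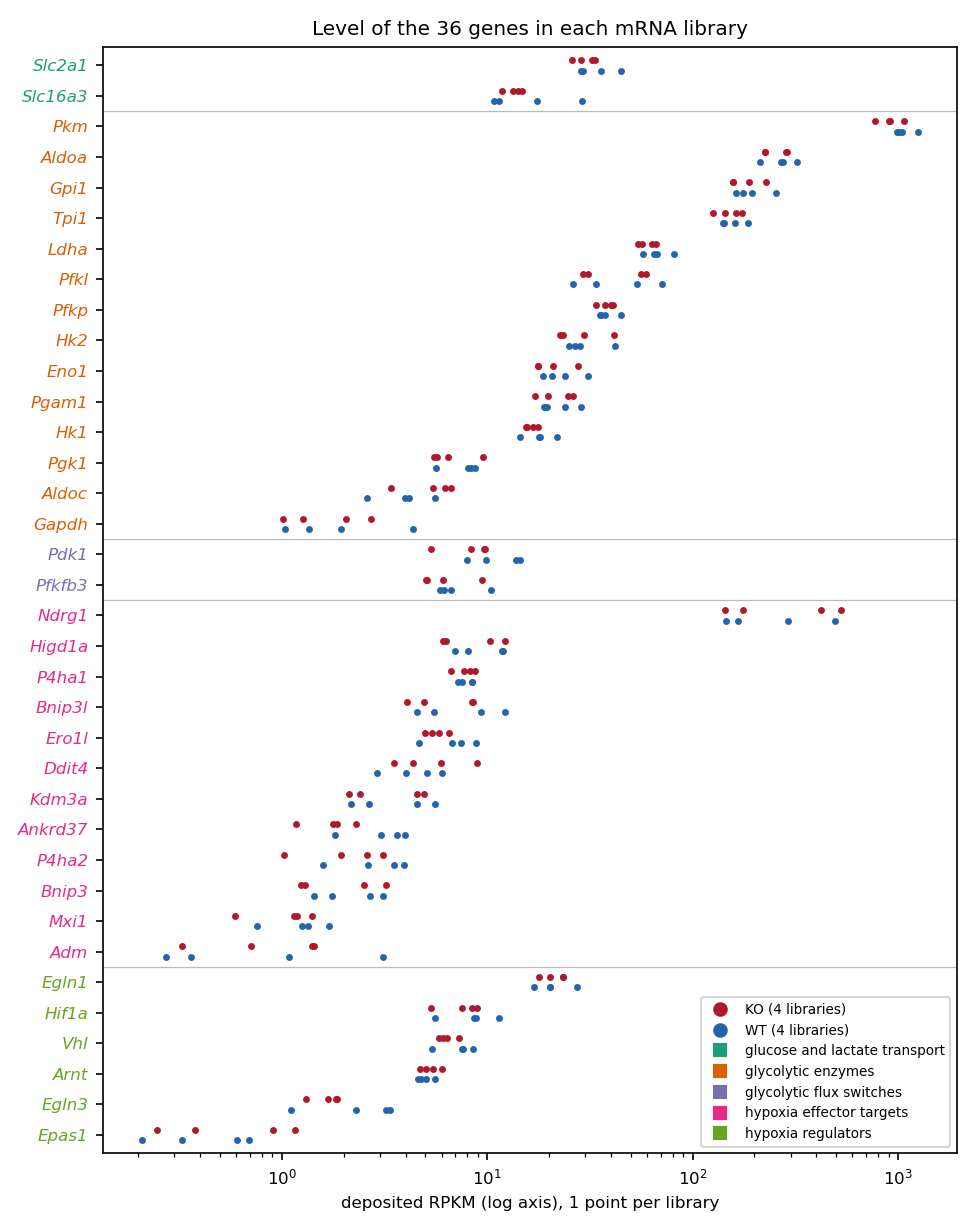
Deposited RPKM of each gene (log axis) in the 4 KO libraries, drawn above, and the 4 WT libraries, drawn below, 1 point per library, with gene names coloured by role. Pkm has the highest levels in both genotypes and Epas1 the lowest mean, and the KO and WT points overlap for all 36 genes.

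The genotype comparison asks whether KO macrophages, labelled as ELAVL1f/f with LysM-Cre, carry other amounts of these mRNAs than WT macrophages. No gene of the set passed the test in either direction, and no gene at all did: edgeR's quasi-likelihood test called 0 of 14019 genes (0.0%) at an adjusted p under 0.05, while 81 (0.578%) had an unadjusted p under 0.05. That share is far smaller than a cutoff of 0.05 gives when nothing differs. The plain fit counts differences between replicate numbers as spread, so it is conservative, and its lack of calls is weak evidence of no change. All 36 members passed the low-count filter and were tested. One of them, Ankrd37, had an unadjusted p under 0.05. The estimates nonetheless leaned one way, with 30 of 36 members below 0 on the log2 scale against 50.4% of all genes, and a median log2 fold change of -0.15 against -0.0017 for all genes. DESeq2 called 3 genes (0.0214%) and no member.

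Markers of some other cells also leaned with genotype, not all in the same direction. All 14 tested stromal markers had estimates above 0 in KO, with a median of 0.97 and none called. Their list summed to 240 to 416 CPM in KO and 197 to 333 CPM in WT. Within the 4 numbers the direction varied by gene. Fbn1 was higher in KO in all 4, Col1a1 and Lox in 2, and Dcn in 1. Of 9 tested neutrophil or granulocyte precursor markers 8 were above 0, with a median of 0.53 and sums of 27.8 to 80.1 CPM in KO and 12.5 to 52.3 CPM in WT. No gene of either list was at 0 in all 8 libraries. Dendritic cell markers had 0 of 2 tested above 0 (median -0.86) and erythroid markers 1 of 3 (median -0.17). Itgax, the most abundant dendritic marker, stood at 139.6 CPM in WT 4, against 1.38 to 36.9 in WT 1 to 3 and 1.40 to 36.6 in KO. It was higher in KO in 2 of the 4 numbers. Adipocyte and T or NK cell markers had 0 of 1 each. Mast cell or basophil and megakaryocyte markers had 4 of 4 each above 0, B cell markers 2 of 2 and endothelial markers 5 of 6. The part of such cells in the members' estimates was not tested.

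The lean of the members rested in part on a single library. Without WT replicate 2 the median of the 36 log2 fold changes was -0.039, and 24 of 36 were below 0. Of the 36 genes, 13 (36.1%) had their highest CPM of all 8 libraries in WT 2 and none had its lowest there, where 15.5% and 17% of all tested genes did. Within replicate numbers the median log2 ratio of KO over WT was 0.023 for number 1, -0.21 for number 2, -0.078 for number 3 and -0.19 for number 4. KO was below WT for 15, 28, 23 and 24 of the 36 genes in numbers 1 to 4, so number 1 did not share the direction of the others.

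**Figure D2:**
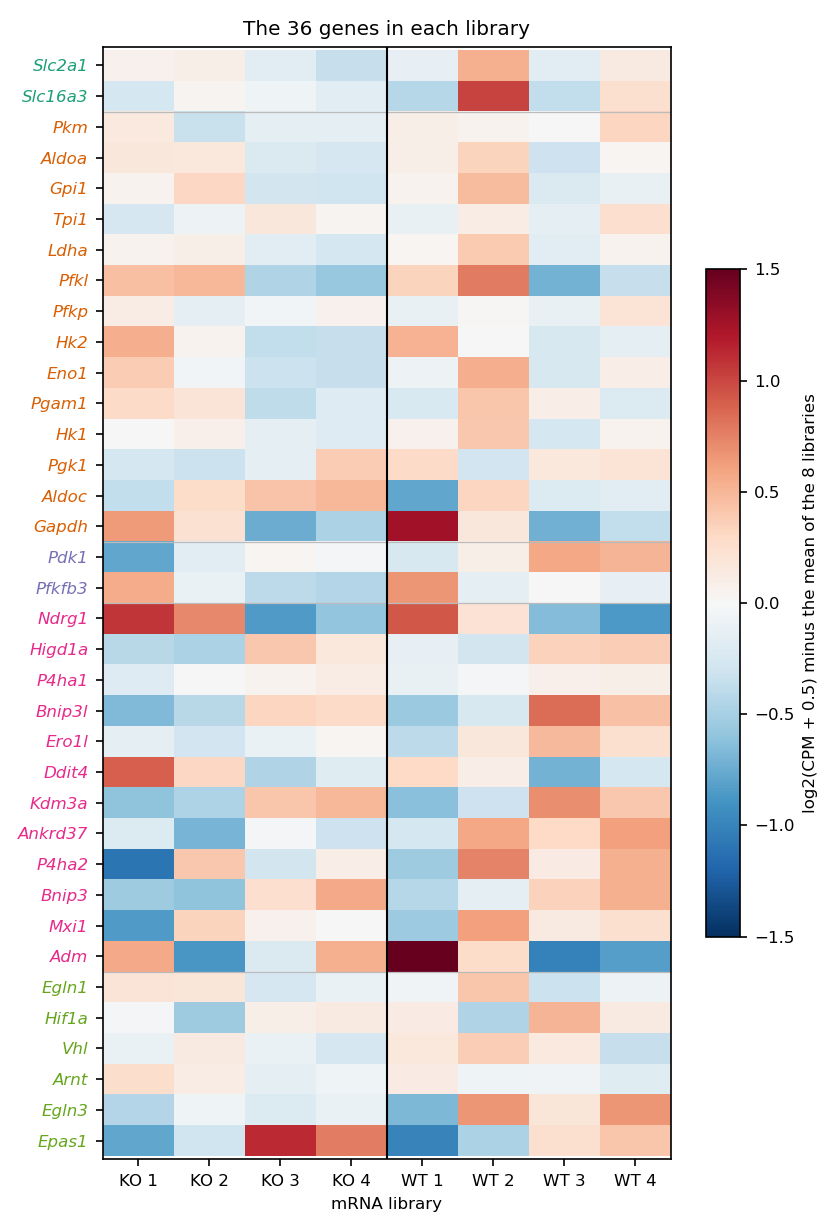
Each gene's log2(CPM + 0.5) in the 4 KO libraries (left) and the 4 WT libraries (right), minus its mean over the 8 libraries, in rows grouped by role; the colour scale ends at 1.5 in either direction. WT 2 is high for both transporters and most enzymes, and many rows change colour between numbers 1 and 2 and numbers 3 and 4 in both genotypes.

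No label pairs the libraries, but those of equal number deviated together from their genotype means (correlations 0.774 to 0.859). Within numbers 3 and 4 the equal number was not always the closer one, as KO 3 correlated at 0.862 with WT 4 and 0.774 with WT 3. With this limit, the fit with the number as a block is given beside the plain one. It called 5 genes (0.0357%), none of them a member. Of the 36 members 29 had estimates below 0 (49.9% of all genes did), with a median of -0.15. At an unadjusted p under 0.05 there were 11 members, 8 lower and 3 higher in KO, where 9.42% of all genes had such a p and 4.52% were also lower. KO lay below WT in all 4 numbers for 5 members (Pdk1, P4ha2, Bnip3l, Mxi1 and Hif1a), a pattern held by 8.26% of all genes, and above WT in all 4 for 2 members (Epas1 and Ddit4), a pattern held by 9.52%. For Hif1a the genotypes were all but equal in number 4, at a log2 ratio of -0.0022. In no member did the 4 KO and 4 WT libraries separate fully; of all genes 0.435% had every KO library below every WT library and 0.35% the reverse.

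**Figure D3:**
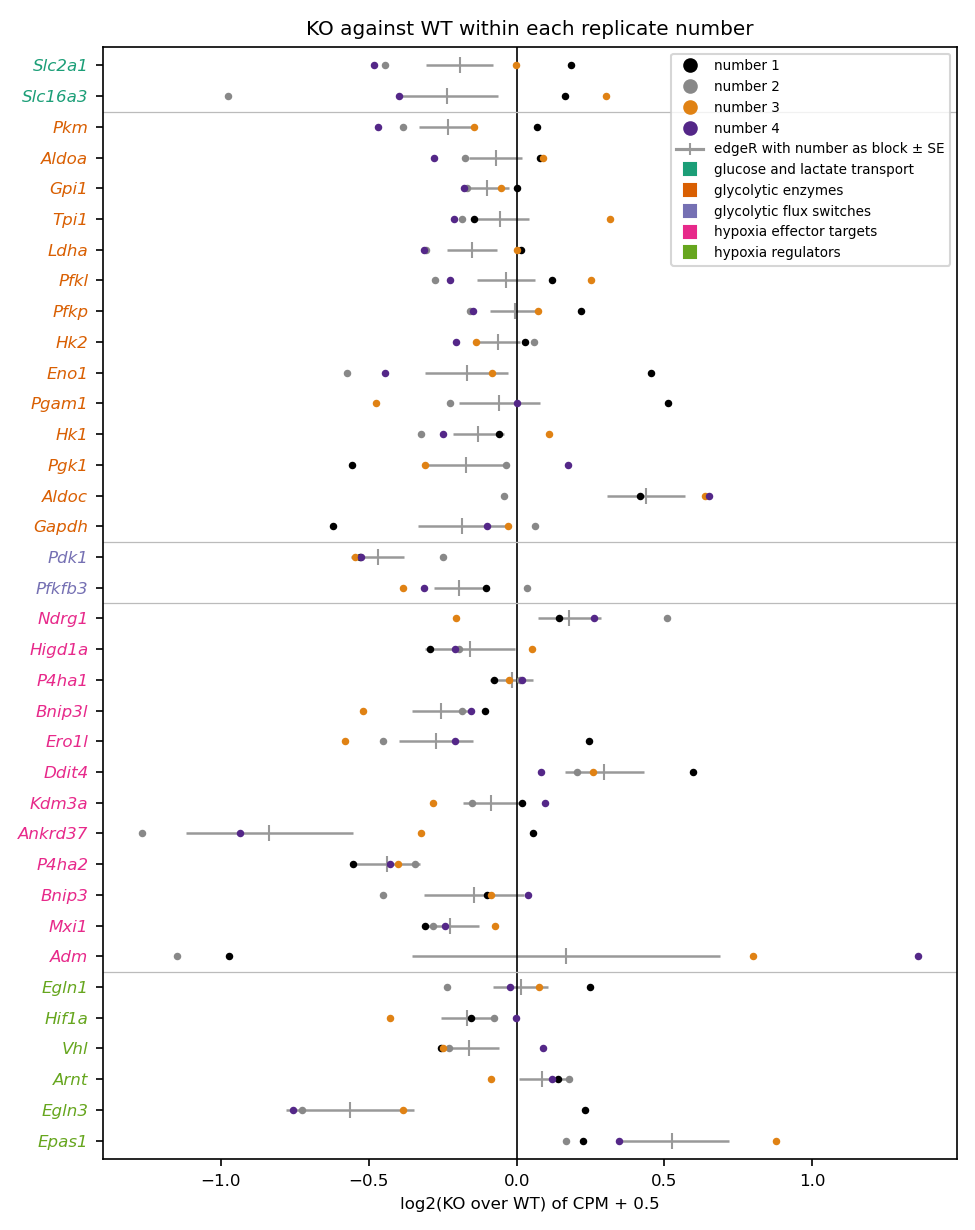
The log2 ratio of KO over WT for each gene within replicate numbers 1 to 4 (points, from CPM + 0.5), with the edgeR estimate that takes the number as a block and its standard error (bar). Pdk1, P4ha2, Bnip3l, Mxi1 and Hif1a have all 4 points at or left of 0, and Epas1 and Ddit4 have all 4 on the right.

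By role, the 14 enzymes had 13 estimates below 0 with a median of -0.089, and the 6 regulators 3 below 0 with a median of -0.088. The 2 transporters and 2 flux switches all had estimates below 0, with medians of -0.28 and -0.32, and of the 12 effector targets 10 were below 0 with a median of -0.18. Within numbers, the enzyme medians were 0.049, -0.18, -0.015 and -0.21 in numbers 1 to 4, and the regulator medians 0.18, -0.15, -0.17 and 0.044. The summed RPKM of the 14 enzymes was 1678 to 1948 in KO and 1738 to 2134 in WT, and that of the 6 regulators 40.1 to 44.6 in KO and 43.1 to 49.6 in WT, so both ranges overlapped between genotypes.

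The flux switch Pdk1, a kinase that shuts pyruvate out of the mitochondrial citrate cycle, came closest to a call. It stood at 25.0, 38.4, 43.9 and 42.5 CPM in KO 1 to 4, against 36.3, 45.8, 64.4 and 61.5 CPM in WT 1 to 4. Each KO library was below the WT library of its number, although the genotypes overlapped as groups, since numbers 1 were low in both. The log2 fold change was -0.47 (SE 0.24, unadjusted p 0.0832) in the plain edgeR fit. With the replicate number as block the estimate was the same, -0.47, with an SE of 0.090 and an edgeR adjusted p of 0.106. DESeq2 with the block gave an adjusted p of 0.0112, which made Pdk1 the sole member among the 82 genes (0.585%) that this fit called. Pfkfb3, whose product makes the activator of phosphofructokinase, had a blocked estimate of -0.19 (SE 0.086, edgeR adjusted p 0.520).

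Among the effector targets, P4ha2 encodes a prolyl hydroxylase that matures collagen. It measured 5.35, 16.01, 9.81 and 12.9 CPM in KO 1 to 4, against 8.09, 20.4, 13.1 and 17.5 CPM in WT 1 to 4. Every number had less in KO, and the spread between numbers was larger than the genotype difference. The blocked estimate was -0.44 on the log2 scale (SE 0.11, edgeR adjusted p 0.224).

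Ankrd37, a small ankyrin repeat gene used as a marker of HIF activity, counted 1.53, 0.948, 1.81 and 1.38 CPM in KO 1 to 4, against 1.45, 2.99, 2.39 and 3.10 CPM in WT 1 to 4. WT 1 lay inside the KO range and the other WT libraries above it. The plain edgeR estimate was -0.81 (SE 0.34, unadjusted p 0.0405, adjusted p 0.9999) and the blocked one -0.84 (SE 0.28, adjusted p 0.375).

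Bnip3l, a receptor for the autophagy of mitochondria, had 22.04, 26.2, 44.0 and 43.03 CPM in KO 1 to 4, against 23.8, 29.8, 63.3 and 47.9 CPM in WT 1 to 4. The numbers set its level more than the genotype did, and WT 3 was the highest library. The blocked estimate was -0.26 (SE 0.097, edgeR adjusted p 0.438), and without WT replicate 3 the plain estimate was near 0, at 0.0034. Mxi1 stood at 10.4, 24.5, 20.2 and 19.2 CPM in KO 1 to 4, against 13.1, 29.9, 21.3 and 22.8 CPM in WT 1 to 4. Number 1 was the lowest in both genotypes, and the blocked estimate was -0.22 (SE 0.097, edgeR adjusted p 0.510).

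Adm was near the detection limit, at 2.29, 0.527, 1.12 and 2.23 CPM in KO 1 to 4, against 4.98, 1.77, 0.431 and 0.564 CPM in WT 1 to 4. KO was lower in numbers 1 and 2 and higher in numbers 3 and 4. The edgeR test of the difference between these 2 genotype effects gave an unadjusted p of 0.0169 and an adjusted p of 0.9998. No gene passed that test (0 of 14019, 0.0%, with an unadjusted p under 0.05 in 0.949%), and Adm was the sole member with an unadjusted p under 0.05. The share of 0.949% is also far smaller than a cutoff of 0.05 gives when nothing differs, so this lack of calls is weak evidence too.

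Of the glycolytic enzymes, Aldoc, the aldolase better known from brain, was the one with an estimate above 0. It measured 12.99, 20.5, 22.9 and 24.1 CPM in KO 1 to 4, against 9.62, 21.2, 14.6 and 15.1 CPM in WT 1 to 4. KO was higher in 3 of the 4 numbers, and number 2 did not differ by more than 1 CPM. With the block its log2 estimate was 0.44 (SE 0.13, edgeR adjusted p 0.302).

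Pkm measured 2797, 1996, 2295 and 2270 CPM in KO 1 to 4, against 2667, 2603, 2534 and 3145 CPM in WT 1 to 4. KO 1 lay above 3 of the WT libraries and the other KO libraries below all of them, and the blocked estimate was -0.23 (SE 0.0996, edgeR adjusted p 0.506). Aldoa had 1494, 1490, 1142 and 1119 CPM in KO 1 to 4, against 1414, 1684, 1073 and 1358 CPM in WT 1 to 4. The genotypes interleaved, with a blocked estimate of -0.071 (SE 0.088, edgeR adjusted p 0.822). For the other enzymes the blocked estimates ran between those of Pkm and Aldoc, and none had an unadjusted p under 0.05.

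Among the regulators, Hif1a stood at 89.9, 63.2, 96.9 and 101 CPM in KO 1 to 4, against 100, 66.8, 131 and 101 CPM in WT 1 to 4. Number 2 was low in both genotypes and WT 3 was highest. The blocked estimate was -0.17 (SE 0.087, edgeR adjusted p 0.574). Arnt, the shared HIF partner, measured 96.6, 87.0, 72.8 and 76.9 CPM in KO 1 to 4, against 87.7, 76.9, 77.4 and 70.7 CPM in WT 1 to 4. KO was higher in 3 of 4 numbers, and the blocked estimate was 0.086 (SE 0.079, edgeR adjusted p 0.756).

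Vhl, the ubiquitin ligase subunit that removes HIF alpha, had 19.9, 23.5, 19.9 and 17.8 CPM in KO 1 to 4, against 23.8, 27.6, 23.8 and 16.7 CPM in WT 1 to 4. It was lower in KO in numbers 1 to 3 and higher in number 4, with a blocked estimate of -0.16 (SE 0.10, edgeR adjusted p 0.642). Egln1 stood at 69.3, 68.3, 50.7 and 56.4 CPM in KO 1 to 4, against 58.3, 80.5, 48.2 and 57.3 CPM in WT 1 to 4. The genotypes interleaved, and the blocked estimate was 0.013 (SE 0.093, edgeR adjusted p 0.973). Egln3 counted 2.04, 2.79, 2.495 and 2.73 CPM in KO 1 to 4, against 1.66, 4.95, 3.41 and 4.95 CPM in WT 1 to 4. It was lower in KO in numbers 2 to 4 and higher in number 1, with a blocked estimate of -0.56 (SE 0.22, edgeR adjusted p 0.440).

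Other genes of the same pathways, taken from lists beside the 36, gave no call in edgeR either. Of 40 other hypoxia pathway genes 35 were tested, 14 with estimates below 0 and 21 above, and of 41 other glycolysis and pyruvate genes 35 were tested, 20 below 0 and 15 above. No gene of either list was called in the plain or the blocked edgeR fit, where 0.0% and 0.0357% of all genes were. The angiogenic growth factor gene Vegfa, a well known HIF target, stood at 24.5, 94.6, 57.2 and 47.7 CPM in KO 1 to 4, against 31.8, 134, 72.9 and 77.5 CPM in WT 1 to 4. It was lower in KO in every number, with a blocked log2 fold change of -0.49 (SE 0.087) and adjusted p-values of 0.0852 in edgeR and 0.00273 in DESeq2 with the block.

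Tgfbi, a matrix protein gene, was higher in KO in 3 of 4 numbers, at 107, 174, 193 and 197 CPM in KO 1 to 4 and 81.3, 174, 106 and 120 CPM in WT 1 to 4. The blocked adjusted p was 0.215 in edgeR and 0.0219 in DESeq2. Cited2, an inhibitor of HIF at its coactivator, was higher in KO in every number (blocked estimate 0.28, SE 0.083, edgeR adjusted p 0.301). Gbe1, the glycogen branching enzyme, was lower in 3 of 4 (blocked estimate -0.42, SE 0.13, edgeR adjusted p 0.314).

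In the glycolysis and pyruvate list, Eno2, the neuronal enolase, had a blocked estimate of 0.52 (SE 0.18, edgeR adjusted p 0.399) and was higher in KO in every number. Pcx, pyruvate carboxylase, had a blocked estimate of -0.35 (SE 0.14, edgeR adjusted p 0.449). Taldo1, the transaldolase of the pentose phosphate pathway, had a blocked estimate of -0.21 (SE 0.099, edgeR adjusted p 0.541), and Pfkfb1, a relative of Pfkfb3, one of 0.57 (SE 0.29, edgeR adjusted p 0.563). Every KO library was above every WT library for Pfkfb1, at 1.31 to 2.04 CPM in KO and 0.467 to 1.21 CPM in WT.

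The libraries numbered 3 and 4 differed from those numbered 1 and 2 at many of these genes, in both genotypes. This split of the numbers was known from earlier results of these data. Its p-values and the gaps between the sets therefore describe the split and are no independent test of it. In the edgeR fit with genotype as covariate 7181 of 14019 genes (51.2%) were called, 3582 higher (25.6%) and 3599 lower (25.7%) in numbers 3 and 4. Of the 36 members 15 were called, 6 higher and 9 lower, which is no larger a share than that of all genes. Of the 14 enzymes 5 were lower and none was called higher, while of the 12 effector targets 4 were higher and 2 lower. Of the 6 regulators 1 was higher and 1 lower, as were the 2 flux switches, and neither transporter was called. What the numbers stand for is not given in the labels, and depth moved with them.

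Ndrg1 differed most. It stood at 475, 568, 547 and 473 CPM in KO 3, KO 4, WT 3 and WT 4, against 1812, 1419, 1641 and 997 CPM in KO 1, KO 2, WT 1 and WT 2. Every library numbered 3 or 4 was below every library numbered 1 or 2, and the log2 difference was -1.501 (SE 0.18, edgeR adjusted p 0.000263).

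Epas1 moved the other way, at 8.04, 6.18, 4.15 and 4.75 CPM in KO 3, KO 4, WT 3 and WT 4, against 1.78, 2.69, 1.45 and 2.33 CPM in KO 1, KO 2, WT 1 and WT 2. The 2 sets did not overlap, and the log2 difference was 1.44 (SE 0.23, edgeR adjusted p 0.00104). Within each number Epas1 was also higher in KO than in WT, with a blocked genotype estimate of 0.53 (SE 0.19, edgeR adjusted p 0.408). As EPAS1 marks endothelial cells as well as macrophages, the endothelial marker list is set beside it: the summed CPM of its 10 genes was 101 to 131 in numbers 3 and 4 and 41.7 to 52.8 in numbers 1 and 2, with 2 genes called higher and 2 lower. In this list Kdr, a receptor for vascular growth factor, stood at 22.5 to 38.4 CPM in numbers 3 and 4 and at 2.69 to 4.46 CPM in numbers 1 and 2. Vwf, the von Willebrand factor gene, stood at 57.9 to 64.3 CPM in numbers 3 and 4 and at 8.79 to 29.1 CPM in numbers 1 and 2, so that both moved with Epas1 and did not overlap between the sets. Other genes of the list did not follow. Egfl7 went the other way without overlap, at 1.29 to 1.98 CPM in numbers 3 and 4 and 2.15 to 3.45 CPM in numbers 1 and 2. Pecam1 stood at 15.3 to 20.95 CPM in numbers 3 and 4 and at 16.6 to 28.9 CPM in numbers 1 and 2. Cdh5, the endothelial cadherin gene, lay between 0.211 and 4.03 CPM over all 8 libraries and overlapped between the sets. No gene of the list was at 0 in every library. Between genotypes, 5 of the 6 tested endothelial markers had estimates above 0 in KO, with a median of 0.31 and none called. The part of such cells in the result was not tested.

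Kdm3a, a histone demethylase induced by HIF, measured 40.6, 43.1, 49.4 and 40.3 CPM in KO 3, KO 4, WT 3 and WT 4, against 19.8, 21.96, 19.5 and 24.5 CPM in KO 1, KO 2, WT 1 and WT 2. The sets did not overlap and the log2 difference was 1.02 (SE 0.12, edgeR adjusted p 0.000235). Bnip3, a mitophagy receptor like Bnip3l, had 4.99, 6.33, 5.33 and 6.16 CPM in KO 3, KO 4, WT 3 and WT 4, against 2.67, 2.53, 2.91 and 3.64 CPM in KO 1, KO 2, WT 1 and WT 2. Again the sets stood apart, with a log2 difference of 0.97 (SE 0.18, edgeR adjusted p 0.00229). Bnip3l and Higd1a, a mitochondrial protein gene, were likewise higher, by 0.95 and 0.71 on the log2 scale (edgeR adjusted p 0.000568 and 0.00459).

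Of the enzymes, Pfkl, the liver-type phosphofructokinase, measured 95.8, 88.3, 80.5 and 103 CPM in KO 3, KO 4, WT 3 and WT 4, against 180, 187, 166 and 226 CPM in KO 1, KO 2, WT 1 and WT 2. The sets did not overlap and the log2 difference was -1.04 (SE 0.13, edgeR adjusted p 0.000304). Gapdh, with the caution about its copies, had 4.52, 5.57, 4.62 and 6.00 CPM in KO 3, KO 4, WT 3 and WT 4, against 12.6, 9.37, 19.7 and 8.96 CPM in KO 1, KO 2, WT 1 and WT 2. The log2 difference was -1.28 (SE 0.25, edgeR adjusted p 0.00313). Hk2, Gpi1 and Aldoa were lower by smaller amounts, with log2 differences of -0.58, -0.46 and -0.38. The Aldoa call was lost without KO replicate 3, KO replicate 4 or WT replicate 3.

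The remaining calls were Ddit4, an inhibitor of mTOR signalling, at -0.85, Pfkfb3 at -0.53 and Egln1 at -0.38, all lower in numbers 3 and 4, and Pdk1 at 0.53, higher. Egln1 lost its call without the low-count filter and without any of KO replicates 1, 3 and 4 and WT replicates 2 and 3, and Pfkfb3 without any of KO replicates 1, 3 and 4 and WT replicates 1, 3 and 4. In 8 members every library numbered 3 or 4 lay below every library numbered 1 or 2, and in 6 every one lay above, where 24.4% and 25.1% of all genes did. Of 14 tested stromal markers 12 were called higher in numbers 3 and 4, although the summed CPM of the list, led by Lox, was lower there (197 to 284 in numbers 3 and 4, 303 to 416 in numbers 1 and 2). The part of stromal cells in these differences was not tested.

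**Figure D4:**
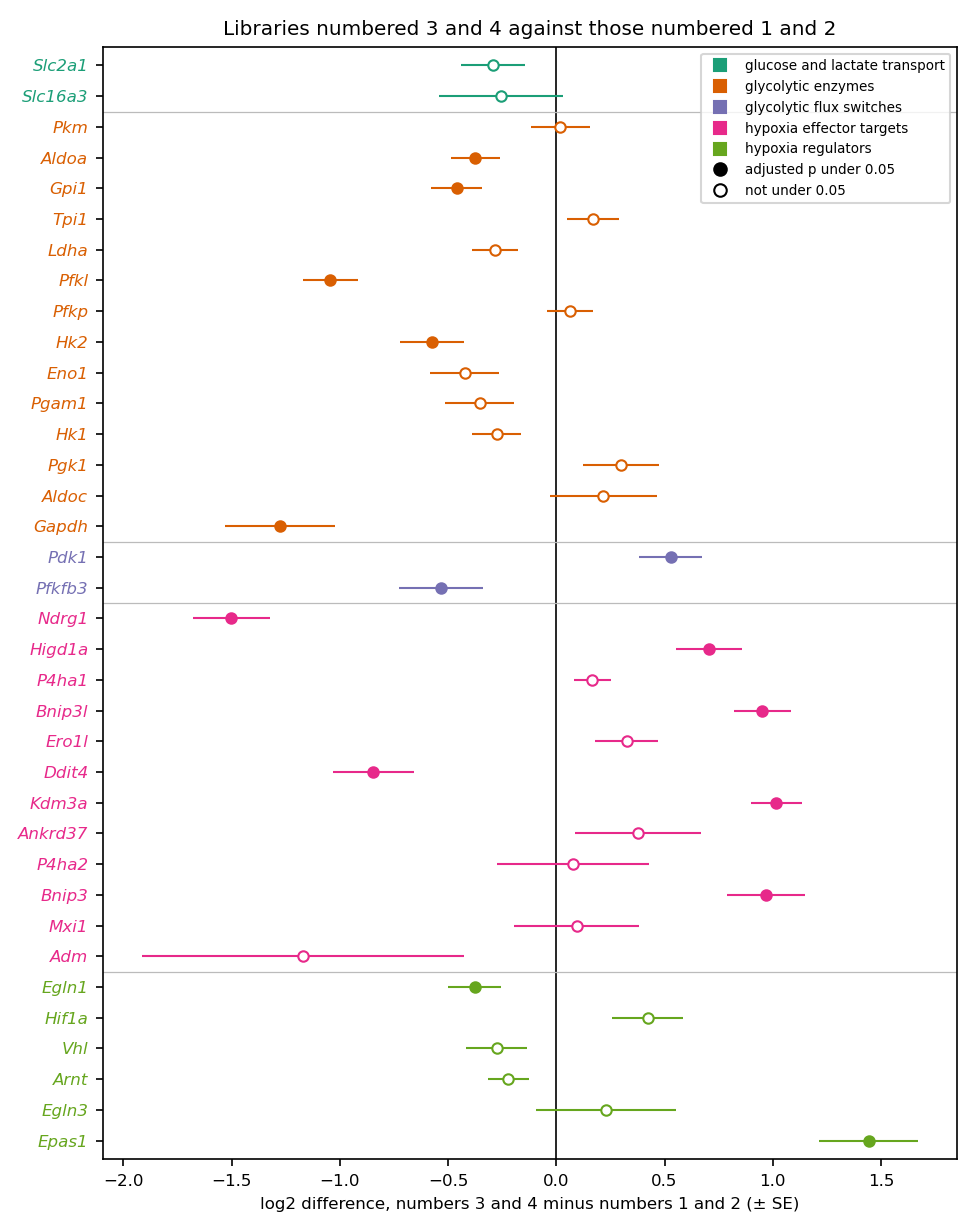
The log2 difference between libraries numbered 3 and 4 and those numbered 1 and 2, with genotype as covariate (edgeR estimate ± SE, 4 libraries a set); filled points have an adjusted p under 0.05. Ndrg1, Gapdh and Pfkl lie far to the left and Epas1, Kdm3a, Bnip3 and Bnip3l to the right, and filled enzymes lie on the left alone.

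The promoters of the 36 genes were read for the core letters of the HIF response element. Many of the genes were chosen as known HIF targets, so a high share here is no independent finding. For a gene with several start sites the promoter with the most matches was taken, so more start sites give more chances. RefSeq promoters on GRCm38.p6, from 250 bases before to 50 after each start site, were found for 32 of the 36. ACGTG, on either strand, was present in 22 of them (68.8%), against 21.8% of 27025 genes with a promoter and 29.4% of the 9405 tested genes with one. It was found in 9 of 14 enzymes, 7 of 9 effector targets, 3 of 5 regulators, both transporters and 1 of 2 flux switches. GCGTG, the other common form, was present in 21 of the 32 (65.6%), against 35.2% of all genes and 55.9% of tested genes. Some ACGTG matches lie in CACGTG, the E-box that MYC relatives bind, which 12.5% of these promoters held, near the 12% of tested genes (8.09% of all promoters). A match is a description and not a bound site. Windows around matches upstream of the start site are shown for a transporter, 2 enzymes, 2 effector targets and a regulator, with the match in capitals and read along the gene's strand.

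Slc2a1, chr4:119108697-119108726 (+): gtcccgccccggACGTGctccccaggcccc
Pgk1, chrX:106186938-106186967 (+): gcgtcgtgcaggACGTGacaaatggaagta
Pgam1, chr19:41911745-41911774 (+): cgctccttgcttACGTGcgctccgtgactg
P4ha2, chr11:54100834-54100863 (+): tgtgcatcgcatACGTGcagcgcgtggcgg
Ddit4, chr10:59951940-59951969 (-): agaacgttgcgaACGTGcgcccggtgccta
Egln3, chr12:54204086-54204115 (-): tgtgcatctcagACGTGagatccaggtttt

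AGO2 PAR-CLIP shows where miRNA-loaded AGO2 sits on these mRNAs: cells take up 4-thiouridine, crosslinked sites are read as T-to-C conversions, and overlapping reads form groups of at least 5 reads. There was 1 library per genotype, so values carry counting intervals and no test. In 3′ UTRs the 36 genes held 43 groups with 4458 reads in KO and 52 groups with 5246 reads in WT. The KO to WT ratio was 0.827 for groups (95% exact interval 0.539 to 1.26, counting error only) and 0.850 for reads (0.816 to 0.885). Over all genes these ratios were 0.788 and 0.856, so the members' values lay at the level of the library. At least 1 such group was found for 16 members (44.4%) in KO and 19 (52.8%) in WT, against 37.4% and 41.0% of the tested genes that have a name. Conversions were present in 81.4% of the members' groups in KO and 82.7% in WT (81.6% and 86.9% over all genes).

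A single enzyme held most of the reads. Aldoa had 2596 reads in KO and 3139 in WT, which is 58.2% and 59.8% of all the members' 3′ UTR reads. They lay, but for 14 reads in WT, within 1 stretch, chr7:133938802-133938859 on the minus strand (mm9, as listed in the files), with 2596 reads in KO and 3125 in WT. Kdm3a came second, at 777 reads in KO and 921 in WT, of which 777 and 906 lay at chr6:71539404-71539435. Without Aldoa the members' read ratio of KO to WT was 0.884. Reads from 1 library each cannot show whether the Aldoa difference exceeds that between cultures, and its KO to WT ratio of 0.827 (0.785 to 0.871) was close to that of all 3′ UTR reads.

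Both stretches carry a match to the seed of miR-27, bases 2 to 8 of the miRNA or bases 2 to 7 followed by an A in the target. Matches were searched for the 30 most abundant seed families of the small RNA libraries, which hold 91.5% of counts; 368 of 485 listed miRNAs had a RefSeq sequence. Among the members' converted groups 10 in KO and 13 in WT held a match to any of the 30, or 10 of 35 and 13 of 43, near the 29.6% and 28.5% of all converted 3′ UTR groups. miR-27 matches lay in 3 genes in each library: Aldoa, Kdm3a and Arnt in KO and Aldoa, Kdm3a and P4ha1 in WT. That is 8.57% and 6.98% of the members' converted groups, beside 3.59% and 3.27% of all. The sites are shown with the match in capitals, on the strand of the gene, followed by the mature miRNAs (RefSeq, GRCm38.p6) with bases 2 to 8 in capitals, so that the pairing can be read off.

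Kdm3a, chr6:71539404-71539433 (-): cacgcatccttatACTGTGActtcacctag
Aldoa, chr7:133938802-133938831 (-): tgccctcgtgtgcggtgttgtCTGTGAAtg
Arnt, chr3:95300950-95300971 (+): aACTGTGAtctgaactataatg
P4ha1, chr10:58836007-58836036 (+): taatacatttACTGTGAtctaaatacactc
miR-27b-3p: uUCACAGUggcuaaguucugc
Aldoa, second match, chr7:133938819-133938848 (-): cccatcactctTGCTGCTgccctcgtgtgc
miR-16-5p: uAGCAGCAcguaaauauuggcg

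The Kdm3a stretch had 777 conversion events in KO and 902 in WT, about as many events as reads. The Arnt site had 19 reads in KO and no group in WT, and the P4ha1 site 34 reads in WT and no group in KO. With 1 library per genotype, neither a difference between genotypes nor its absence can be read from these counts. The Aldoa stretch holds both a miR-27 match and a miR-16 match, and the reads do not tell which was used.

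Of the 6 regulators, Hif1a, Arnt and Vhl had 3′ UTR groups in both libraries, and Epas1, Egln1 and Egln3 had none in either. Hif1a had 3 groups with 269 reads in KO and 3 with 262 in WT, a ratio of 1.03 (0.863 to 1.22). Its largest group held 161 reads in KO and 207 in WT and its next shared one 69 in KO and 42 in WT. Neither holds a match to the 30 families.

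Hif1a, chr12:75047808-75047836 (+): ctctttgtggttgggtctaacactaactg
Hif1a, chr12:75047915-75047940 (+): tctcaacatttctagctcataaaacg

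Arnt had 9 groups with 284 reads in KO and 8 with 166 in WT, a ratio of 1.71 (1.41 to 2.09), and Vhl 3 groups with 59 reads in KO and 7 with 99 in WT, a ratio of 0.596 (0.424 to 0.831). The mRNA of neither gene was called between genotypes, as given above. Groups of both genes held a miR-29 match in both libraries. A miR-221 match was found in groups of both genes in KO alone, since in WT no group covers the Vhl site and the group of 5 reads at the Arnt site holds no match. The sites are shown from the KO groups. Over the 6 regulators, 3 of which had reads, the read ratio was 1.16 (1.03 to 1.31), with Arnt above 1 and Vhl below it. Over the 12 effector targets it was 0.732 (0.672 to 0.798), with Kdm3a giving 777 of 918 reads in KO and 921 of 1254 in WT. The 14 enzymes, led by Aldoa, had a ratio of 0.825 (0.785 to 0.868). The 2 flux switches had 67 reads in KO and 19 in WT, a ratio of 3.53 (2.09 to 6.22), of which Pfkfb3 gave 44 in KO and none in WT. These intervals leave out the spread between cultures, which 1 library cannot give.

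Arnt, chr3:95300169-95300192 (+): ctcttTGGTGCTttcaactcattg
Vhl, chr6:113581604-113581624 (+): aataaacGGTGCTAattgaag
miR-29a-3p: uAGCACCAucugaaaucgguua
Arnt, chr3:95301107-95301130 (+): caaaaataatgacATGTAGCaaag
Vhl, chr6:113580597-113580624 (+): tcacagagcagtctggaatgTGTAGCAg
miR-221-3p: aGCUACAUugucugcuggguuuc

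Ddit4 had 89 reads in KO and 164 in WT, a ratio of 0.543 (0.414 to 0.707), and its mRNA was higher in KO in all 4 numbers without passing the test (17.8, 11.7, 6.71 and 8.18 CPM in KO 1 to 4, against 11.6, 10.1, 5.52 and 7.69 in WT 1 to 4). Most of the Ddit4 difference lay at a stretch with a run of U, where 26 reads were found in KO and 81 in WT, and a further group of 26 reads was listed in WT alone. At a neighbouring stretch with a miR-221 match the counts were 63 in KO and 57 in WT. The U run is shown in lower case, as no miRNA match lies in it, and the miR-221 match overlaps one to miR-101b. Among the members' converted groups, 4 in KO and 5 in WT held TTTTT, where 10.4% and 11.2% of all converted groups did.

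Ddit4, U-rich stretch, chr10:59412961-59412988 (-): taccttatttttttttattactgacaag
Ddit4, miR-221 match, chr10:59413042-59413067 (-): cacacgcccctcagtacTGTAGCAtg

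Of the other genes by read number, Slc2a1 had 91 reads in KO and 90 in WT, over 5 groups in each. Hk2, the inducible hexokinase, had 113 reads in 8 groups in KO and 67 in 5 groups in WT, and Bnip3l 47 reads in KO and 83 in WT. Hk1, the housekeeping hexokinase, had a single group of 104 reads in WT and none listed in KO. Pfkfb3 showed the reverse, 44 reads in KO and no 3′ UTR group in WT. In all, 14 members had 3′ UTR groups in both libraries, 2 in KO alone, 5 in WT alone and 15 in neither. Over all genes such groups were likewise listed for more genes in WT (6058) than in KO (5559). The share of all genes with groups in 1 library alone is not given here.

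Not every abundant mRNA had AGO2 reads in its 3′ UTR. Pkm, the most abundant mRNA of the set, had no 3′ UTR group in KO and a single group of 8 reads in WT, and Ndrg1 none in KO and 25 reads in WT. Gpi1, at 431 CPM in KO and 463 CPM in WT on average, had no 3′ UTR group in either, and 6 members had no group of any kind. Position for position, 21 of the 43 groups in KO (48.8%) overlapped a group in WT by at least 1 base and 20 of the 52 in WT (38.5%) overlapped one in KO, near the 52.1% and 40.7% of all 3′ UTR groups.

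**Figure D5:**
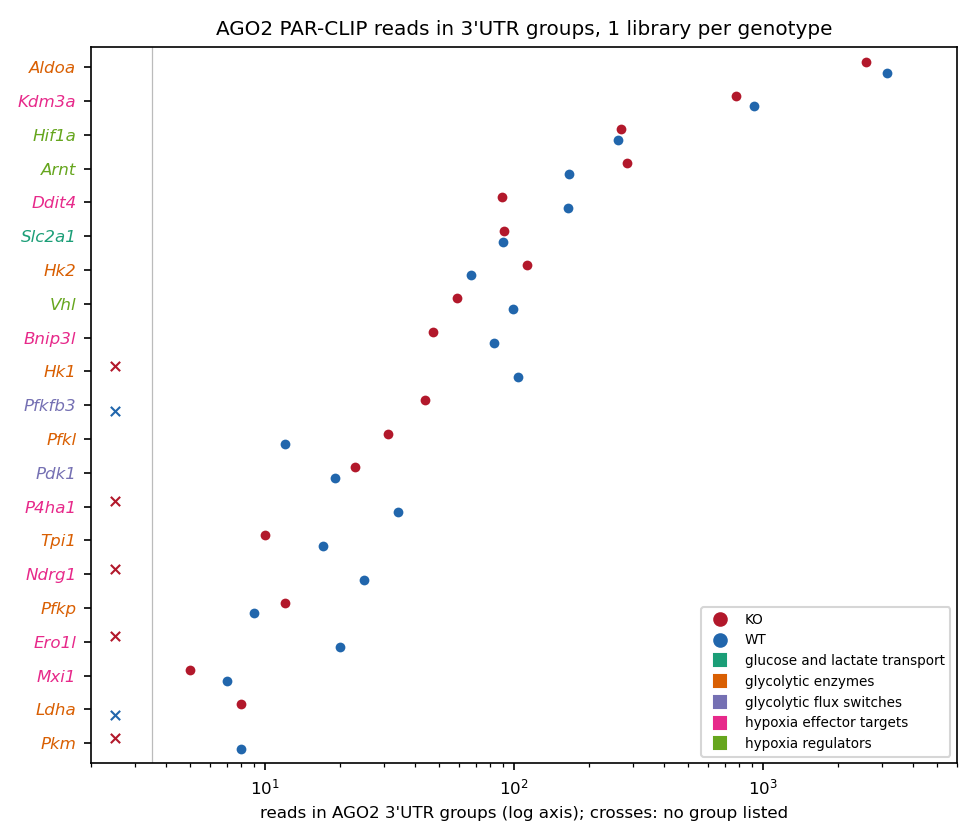
Reads in AGO2 3′ UTR groups (log axis) in the KO library, drawn above, and the WT library, drawn below, for the 21 genes with such a group, ordered by their sum; crosses mark a library with no group listed. Aldoa and Kdm3a stand well above the rest in both libraries, and 7 genes have reads in 1 library alone.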

How the data were processed

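The authors deposited, per the file headers, raw read counts and RPKM values for each gene and library; both are used as deposited, the counts for tests and CPM (scaled by TMM), the RPKM for levels between genes. The deposited PAR-CLIP tables list groups with their read counts and conversion counts, and the small RNA tables list counts of miRNAs. The submitters' processing notes name CASAVA 1.8.2, Bowtie 0.12.7 and the build mm9. No source used here names the program that counted genes, whether it used strand, or the one that called the groups. The gene length behind the RPKM is not given here. Among the small RNA columns, 1 named another sample than its file did and was not used. Whether group positions count from 0 or 1 is not settled.

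KO was compared with WT by edgeR 4.0.16 quasi-likelihood tests (TMM, filterByExpr, Benjamini-Hochberg over 14019 genes, adjusted p under 0.05), with DESeq2 1.42.0 as an alternative. The edgeR fits were also run on simulated data with known changes. The sign of large changes had to be recovered by the blocked and number-set fits, and this was not required of the plain fit. Same-numbered libraries deviated together from their genotype means (correlations 0.832, 0.859, 0.774 and 0.832 for numbers 1 to 4), so the number was also fitted as a block; within numbers 3 and 4 unequal numbers correlated as well (0.862 and 0.808). Ratios within numbers use CPM + 0.5. Standard errors are the log2 fold change over the square root of F. Overlaps used bedtools 2.31.1. PAR-CLIP intervals are exact at 95% and cover counting error only, since reads carry no molecular identifiers.

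The 36 genes and the lists were chosen with earlier results of these data known. Values in every library are given for the 8 members of smallest blocked p, the 6 of largest called difference between number sets, the 6 regulators and the 3 highest and 3 lowest by RPKM in WT; PAR-CLIP values for the 10 with most reads; and of the other pathway genes the 4 of smallest blocked p in each list. Ddit4 in the mRNA was added after its values were seen. Alternatives covered the tool, scaling, low-count filter, block, number sets, each library left out, read and conversion minimums, annotation class and overlap.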

Additional observations from a re-analysis of the deposited data

Results flagged for a closer look

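Of the 72 groups of 4 libraries examined (36 genes in each genotype), 1 held a library far from the other 3, where chance gives about 1 in 20. Pfkfb3 stood at 308 CPM in WT 1, against 178 to 193 CPM in WT 2 to 4. KO 1 had 286 CPM, against 144 to 182 CPM in KO 2 to 4, so number 1 was the highest in both genotypes. The block for the number holds this library against KO 1.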

How the results depend on the processing

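In the plain comparison of KO with WT the count of all called genes was 0 with edgeR, 5 with the replicate block, 3 with DESeq2, 82 with DESeq2 and the replicate block, 14 in numbers 3 and 4 alone and 1 with the number set as block. With the replicate block and each number left out in turn it was 4 (without number 1), 29 (2), 7 (3) and 3 (4). The count of called members was 0 in every one of these but DESeq2 with the replicate block, where it was 1 (Pdk1). The block changed no other member's call. The median log2 fold change of the 36 ran from -0.16 to -0.039 when single libraries were left out, the last without WT replicate 2; the cause was not tested. All other alternatives kept it between -0.16 and -0.073.

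Of 720 estimates for single members under an alternative, 660 kept direction and side of the threshold and 59 changed sign, all in members that were not called. With single libraries left out, the range crossed 0 for Bnip3 (-0.40 to 0.069), Egln1 (-0.094 to 0.16), Kdm3a (-0.29 to 0.16), Ndrg1 (-0.16 to 0.67), P4ha1 (-0.056 to 0.039), Tpi1 (-0.13 to 0.025), Pfkp (-0.048 to 0.067), Hk2 (-0.28 to 0.14), Pfkl (-0.26 to 0.24), Pgam1 (-0.16 to 0.10), Adm (-0.68 to 0.80), Gapdh (-0.59 to 0.29), Pfkfb3 (-0.44 to 0.051), Aldoa (-0.18 to 0.033), Eno1 (-0.34 to 0.013), Gpi1 (-0.24 to 0.062), Slc16a3 (-0.52 to 0.046) and Bnip3l (-0.47 to 0.0034). With the replicate block and a number left out, signs changed for Egln1 (-0.061 without number 1, -0.0080 without 3), P4ha1 (0.0013 without 1), Pfkp (0.043 without 2, 0.036 without 4), Pfkl (0.045 without 2, 0.024 without 4), Pgam1 (0.085 without 3), Slc16a3 (0.016 without 2) and Adm (0.73 without 1, 0.62 without 2). Adm was also above 0 with the replicate block (0.17), DESeq2 and the block (0.13), the number set as block (0.13) and in numbers 3 and 4 alone (1.74). In numbers 1 and 2 alone Egln1 was at -0.014, Hk2 at 0.037, Pfkp at 0.030 and Pgam1 at 0.11, and in numbers 3 and 4 alone Tpi1 was at 0.033.

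Between number sets the count of called members was 15, 19 with DESeq2, 17 with DESeq2's size factors in edgeR, 15 without a filter, and 12 to 21 with single libraries left out. Ranges that crossed 0 were those of Mxi1 (-0.11 to 0.37), P4ha2 (-0.16 to 0.43), Pkm (-0.062 to 0.14), Egln3 (-0.068 to 0.55), Slc16a3 (-0.45 to 0.15) and Pfkp (-0.0095 to 0.13), none of them called.

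AGO2 groups of the members numbered 20 in KO and 17 in WT at 20 or more reads, and 7 and 6 with at least 2 conversion locations. Under both minimums KO thus had more groups than WT, the reverse of 43 in KO and 52 in WT without them. The counts over all genes under these minimums are not given here. In any transcript class they numbered 109 and 103, and the read ratio of KO to WT was 1.05 in place of 0.850. Groups of any class over all genes likewise held more reads in KO, 6445262 against 6287870 in WT. Without Aldoa, chosen after seeing the data, the members' 3′ UTR read ratio was 0.884. With overlap over at least 50% of both groups, 18 groups in each library were shared.

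Depth limits the lowest genes, Adm, Epas1 and Ankrd37, and PAR-CLIP genes with few reads; with 1 library per genotype no PAR-CLIP difference can be tested.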
